A study of Mus musculus with 4 samples.

Results

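The CD45+ immune compartment of B16F10 melanomas was compared between wild-type (WT) and Lrrc25-/- host mice. Cells were chosen by counts in the barcodes: at least 300 genes, at least 500 unique molecular identifiers (UMIs, each standing for 1 captured RNA molecule), at most 20% mitochondrial UMIs and at least 1 UMI of Ptprc, the gene of CD45. This left 3515 cells from the WT library and 5736 from the Lrrc25-/- library, 9251 of the 59732 barcodes of the series. B16F10 is a mouse melanoma line, and these cells carried no labelled edit; the genotype is that of the host. Tumors were taken at day 14 after inoculation, with no treatment, and 100 mm3 from each of 3 mice per genotype was mixed before dissociation, with sorted CD45+ cells and unsorted cells then combined at 5 to 1. The second tumor model, the MC38 colon carcinoma line at day 26, was made the same way. Each genotype is thus 1 pool and 1 library per model, mice cannot be told apart, and no difference below has a replicate check. Intervals are 95% and cover counting error only.

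Lrrc25 encodes a leucine-rich repeat membrane protein found mainly on myeloid cells. In tumors, macrophages marked by the complement subunits C1qa, C1qb and C1qc take up debris, present antigen and release chemokines, while monocytes arrive from blood and change into macrophages. T cells carry the Cd3 signalling chains, natural killer (NK) cells the receptor Ncr1, neutrophils large amounts of S100a8 and S100a9, and B lineage cells the signalling chain Cd79a.

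Compartment cells had a median of 9200 UMIs in the WT library and 7598 in the Lrrc25-/- library, 39016932 and 56791148 UMIs in all, and a median mitochondrial share of 0.300% and 0.644%. They were 35.9% (95% Clopper-Pearson interval 34.9 to 36.8) of 9799 cells kept in the WT library and 46.6% (45.8 to 47.5) of 12299 in the Lrrc25-/- library. Ptprc stood at 180 counts per 1000000 compartment UMIs (CPM) in WT and 230 CPM in Lrrc25-/- cells. The Ptprc minimum left out many immune cells. Among all kept cells with 5 or more C1q UMIs, 47.5% of 4841 in the WT library and 55.8% of 5065 in the Lrrc25-/- library had a Ptprc UMI. Among cells in which 5 melanocyte genes (Pmel, Mlana, Dct, Tyrp1 and Tyr) made up at least 1% of UMIs, called melanoma-RNA cells here, the shares were 6.51% and 11.9% at median depths of 25637 and 23537 UMIs. Such cells were 3.93% of the WT and 3.96% of the Lrrc25-/- compartment. Only 8 barcodes were shared between the compartments of the 2 libraries.

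C1q cells were a lower share and S100a8/9 cells a higher share of compartment cells in the Lrrc25-/- library. A cell was put into a lineage when it passed exactly 1 of 5 gates: at least 5 UMIs of C1qa, C1qb and C1qc, at least 2 of Cd3d, Cd3e and Cd3g, at least 1 of Ncr1, at least 10 of S100a8 and S100a9, or at least 2 of Cd79a. C1q cells made up 55.0% of WT and 44.1% of Lrrc25-/- compartment cells, a ratio of 0.802 (0.756 to 0.852). Their part of all compartment UMIs was 58.7% in both libraries, and their median depth was 10027 UMIs in WT and 11644 in Lrrc25-/- cells. The S100a8/9 gate held 34 WT and 173 Lrrc25-/- cells, 0.967% and 3.02%, a ratio of 3.12 (2.15 to 4.65). The Ncr1 gate held 22 and 40 cells, a ratio whose interval ran from 0.646 to 1.97.

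The Cd3 share depended on cells that passed several gates. Cd3 cells were 12.2% of WT and 17.6% of Lrrc25-/- cells when only cells with 1 gate were counted, a ratio of 1.44 (1.29 to 1.62). Cells passing several gates were 11.6% of WT and 6.29% of Lrrc25-/- cells, and 337 WT and 248 Lrrc25-/- cells passed both the Cd3 and the C1q gate. With such cells counted in each gate they passed, the Cd3 share was 22.8% in WT and 22.9% in Lrrc25-/- cells, a ratio of 1.00 (0.916 to 1.09). After every cell was thinned to 1000 UMIs, with a Cd3 minimum of 1, the same count gave 15.9% and 19.0%, a ratio of 1.19 (1.07 to 1.32). The Cd79a gate, with 21 and 59 cells, went from a ratio of 1.72 to 0.910 when cells were counted in each gate. The C1q ratio was 0.754 and the S100a8/9 ratio 2.03 in that count. Some cells that should lack C1q also passed the C1q gate: 455 of 1981 WT and 433 of 1683 Lrrc25-/- melanoma-RNA cells without Ptprc did so, at median depths of 25231 and 21755 UMIs, against 65.4% and 49.3% of compartment cells. After thinning to 1000 UMIs, with a C1q minimum of 2, 2.45% and 6.39% of these melanoma-RNA cells passed.

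**Figure D1:**
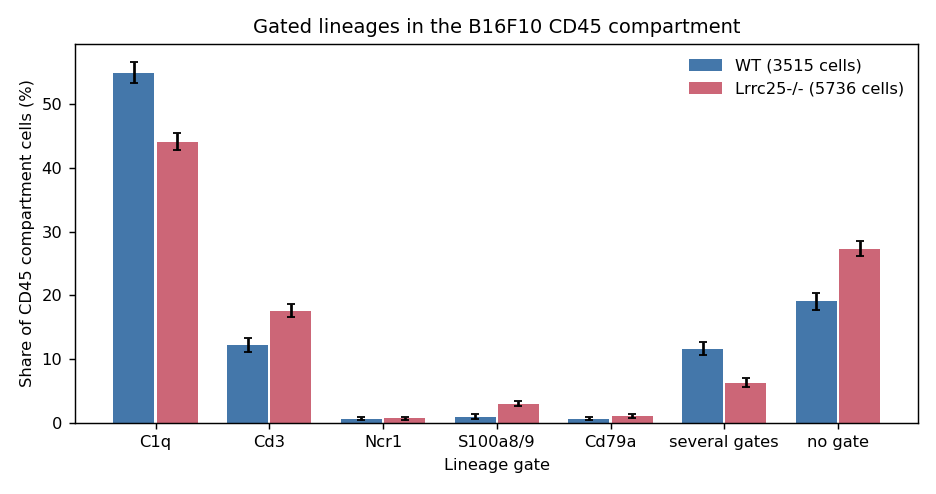
Share of CD45 compartment cells (y axis, percent) in each lineage gate (x axis) for the WT (blue) and Lrrc25-/- (red) B16F10 libraries, with exact 95% binomial intervals that cover counting error only. C1q cells were 55.0% and 44.1% of cells, and S100a8/9 cells were 0.967% and 3.02%.

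Lrrc25 itself checked the labels. The gene lies at chr8:70616155-70621483 on the plus strand of GRCm38 and was read at 103 CPM in the WT compartment (4009 UMIs in 1794 cells) and at 3.24 CPM in the Lrrc25-/- compartment (184 UMIs in 176 cells). The C1q gate held 81.1% of this difference, with 142 CPM in WT and 4.11 CPM in Lrrc25-/- cells. In the Cd3 gate Lrrc25 stood at 17.8 and 1.04 CPM, and in melanoma-RNA cells without Ptprc at 3.25 and 0.444 CPM. In the small S100a8/9 gate it stood at 204 and 5.58 CPM. Which exons were deleted is not given in the sources used here, so the remaining reads cannot be placed inside or outside the deletion.

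More genes were higher than lower in the Lrrc25-/- compartment. Of 5047 genes measured (at least 20 CPM in either library and 50 UMIs in all), 244 (4.83%) were higher and 47 (0.931%) lower by at least 1.5-fold after adding 1 CPM, with a counting interval of the ratio that left out 1. The median log2 fold over all measured genes was 0.03. With libraries scaled by the trimmed mean of M values (TMM) instead of their totals, 198 genes were higher and 80 lower. Genes named below as having the largest folds are ranked without antigen receptor segments and without sex-linked, mitochondrial, ribosomal, Gm, Rik and melanoma genes. Each difference was split arithmetically into the part of each cell class, and a class was said to carry a gene when it held at least 50% of the summed absolute parts. The C1q gate carried 95 of the 244 higher genes, the Cd3 gate 14, the cells in no gate 13 and the S100a8/9 gate 3, while the other 119 were spread over classes. Of the 47 lower genes the C1q gate carried 26. A change of level inside the classes outweighed a change in their mix for 242 of the 244 higher genes and for all 47 lower genes, in this split by gates. Many higher genes were also called higher within single classes. Of those measured in the C1q gate, 142 of 200 were called higher there, against 3.4% of all genes measured in that gate. The counts were 90 of 193 in the Cd3 gate (8% of all genes there), 159 of 228 in cells of several gates (7.32%) and 204 of 222 in cells of no gate (16.3%). Of the lower genes, 28 of 39 were called lower in the C1q gate (0.722%), 26 of 39 in cells of several gates (1.41%) and 38 of 42 in cells of no gate (11.5%). The classes are parts of the compartment sum and share its UMIs, so these overlaps are partly built in and are a description only.

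Melanoma-RNA cells without Ptprc, taken from the same libraries, give a comparison outside the immune cells. Among them 82 of 4578 measured genes (1.79%) were higher and 11 (0.24%) lower in the Lrrc25-/- library. Of the 244 genes higher in the compartment, 50 could be measured in these cells and 21 of the 50 were higher there too. Of the 47 lower genes 35 could be measured and 3 were lower. The part of free RNA in the compartment differences was not tested.

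**Figure D2:**
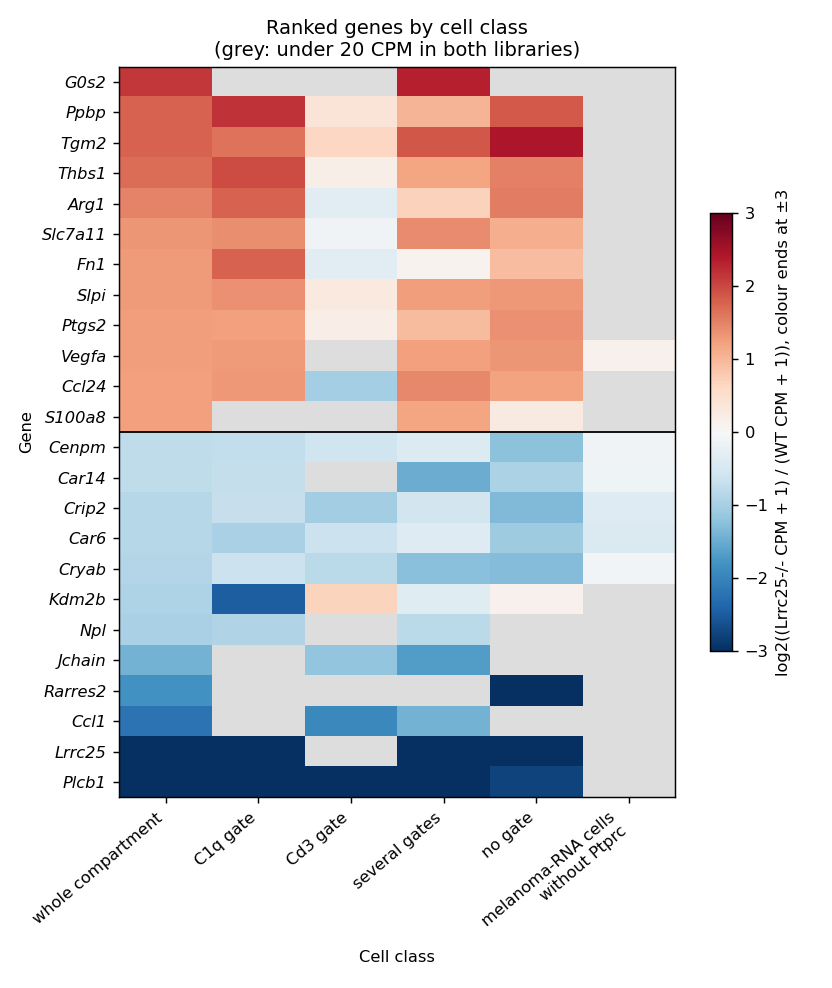
Colour shows the log2 fold (Lrrc25-/- over WT, after adding 1 CPM) of the 12 genes with the largest folds in each direction (rows) in each cell class (columns), and grey marks genes under 20 CPM in both libraries. Most higher genes were also red in the C1q gate and in cells of no gate but near white in the Cd3 gate, while Plcb1 and Lrrc25 were dark blue in every class where they are not grey.

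Thbs1, Tgm2 and Fn1 were among the higher genes of the compartment. Thbs1, which encodes the matrix protein thrombospondin-1, stood at 138 CPM in WT and 445 CPM in Lrrc25-/- cells, a ratio of 3.22 (3.13 to 3.32). Tgm2, a protein-crosslinking transglutaminase, stood at 46.5 and 160 CPM, and Fn1, which encodes fibronectin, at 62.9 and 154 CPM. Tgm2 was higher in the C1q, Cd3, S100a8/9 and several-gate classes and in cells of no gate. Thbs1 and Fn1 were called higher in the C1q gate, where Thbs1 stood at 86.8 and 340 CPM and Fn1 at 43.8 and 151 CPM. Neither was called in the Cd3 gate, where Thbs1 stood at 133 and 151 CPM and Fn1 at 58.8 and 46.7 CPM. In the melanoma-RNA cells without Ptprc, Thbs1 stood at 7.13 and 18.6 CPM. The 5 fibroblast markers were also higher in sum, at 78.1 and 125 CPM in the compartment and 38.4 and 108 CPM in the C1q gate, and the part of fibroblast RNA in these genes was not tested.

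The chemokines that draw neutrophils and monocytes were split. Of 13 measured myeloid-attracting chemokines 5 were higher and 1 lower, with a median log2 fold of 0.31. Among all genes measured in the compartment 4.83% were higher and 0.931% lower. The neutrophil-attracting CXC members Cxcl1, Cxcl2, Cxcl3 and Ppbp were higher, as was Ccl9. Cxcl2 stood at 4275 CPM in WT and 8008 CPM in Lrrc25-/- cells and Cxcl1 at 788 and 1359 CPM. Cxcl3, with the largest fold of the 3, stood at 492 and 1142 CPM. Ppbp, which encodes the precursor of the platelet chemokine CXCL7, stood at 28.6 and 100 CPM, a ratio of 3.50 (3.28 to 3.74), and its UMIs lay in few cells, 155 in WT and 454 in Lrrc25-/- cells. The monocyte chemokine Ccl12 was lower, 1819 and 1114 CPM. Its relatives Ccl2 and Ccl7 passed no call, with 4762 and 3866 CPM for Ccl2. The C1q gate gave the same counts, 5 higher and 1 lower of 13, and none of the 13 was called in the Cd3 gate. Cxcl2 and Cxcl3 were also called higher in melanoma-RNA cells without Ptprc, at 96.0 and 219 CPM for Cxcl2.

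Promoter stretches of Cxcl1, Cxcl2 and Cxcl3 are shown because these genes were called higher together, and they are near each other and near Ppbp on chromosome 5. The sequences are from RefSeq promoters on GRCm38.p6, each 300 bases long with 250 bases before the start, and only bases before the start are printed, 5′ to 3′ on the plus strand. Capitals mark a match to the NF-kappaB consensus, searched on both strands, which in all 3 genes overlaps a second match shifted by 1 base.
Cxcl3 (chr5:90786000-90786065): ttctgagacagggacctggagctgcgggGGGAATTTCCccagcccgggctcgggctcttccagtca
Cxcl1 (chr5:90891146-90891211): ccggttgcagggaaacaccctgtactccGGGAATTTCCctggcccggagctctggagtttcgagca
Cxcl2 (chr5:90903774-90903839): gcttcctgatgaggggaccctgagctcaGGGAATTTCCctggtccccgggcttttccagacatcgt
The same 10 bases stood in capitals in all 3 stretches, 73, 71 and 97 bases before the start in that order. Of the 10 listed myeloid-attracting chemokines with a RefSeq promoter, 4 held the consensus in it, against 5.14% of 27025 genes. Of 14 inflammatory mediators with a promoter 5 held it: Il6, Nlrp3, Nfkbia, Tnfaip3 and Ier3. Of these, only Il6 and Nlrp3 were called higher in the compartment, and only Il6 in the C1q gate. A match describes letters only, and these genes are relatives that share sequence.

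Of the inflammatory mediators, 7 of 13 measured were higher, 0 were lower, and the median log2 fold was 0.63. The shares over all genes measured in the compartment were 4.83% higher and 0.931% lower. Il6 was measured through the Lrrc25-/- library alone, so it had to be higher to enter. Over all 15 listed genes the log2 fold was above 0 for 14, with a median of 0.68. Ptgs2, the inducible enzyme of prostaglandin synthesis, stood at 54.9 CPM in WT and 133 CPM in Lrrc25-/- cells. Il6, a cytokine, stood at 12.4 and 25.2 CPM, and Il1a at 156 and 254 CPM. Tnf, Nlrp3, Il1rn and Clec4e were also called. Il1b, which shares its receptor with Il1a, did not pass, at 1394 and 1932 CPM. In the C1q gate 4 of 13 were higher (3.4% of all genes there), with Ptgs2 at 46.4 and 111 CPM. Of those 13, 1 was measured through the Lrrc25-/- library alone. In the Cd3 gate 0 of 12 were higher and 1, Il1b, was lower. In cells of no gate 12 of these genes were higher, among them Il1b at 1698 and 3287 CPM, against 16.3% of all genes measured there. Of the 13 measured there, 2 were measured through the Lrrc25-/- library alone.

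The antioxidant response, a set of genes that make glutathione, take up cystine or repair oxidised protein and that the transcription factor NRF2 is known to induce, was higher in 6 of 11 measured genes and lower in none. Its median log2 fold was 0.60 in the compartment, 0.64 in the C1q gate and -0.02 in the Cd3 gate. Among all genes measured in the compartment 4.83% were higher. Gclc was measured in the compartment through the Lrrc25-/- library alone, as was 1 gene in the C1q gate, and such genes had to be higher to enter. Over all 13 listed genes the compartment log2 fold was above 0 for 12, with a median of 0.58. Slc7a11, the cystine importer, stood at 32.2 and 82.5 CPM, a ratio of 2.56 (2.40 to 2.73), and Srxn1, a sulfiredoxin, at 39.7 and 80.3 CPM. Gclc and Gclm, the 2 subunits of the first enzyme of glutathione synthesis, stood at 18.4 and 33.0 CPM and at 52.7 and 84.2 CPM. Txnrd1 and the heme oxygenase Hmox1 were also called, Hmox1 at 901 and 1374 CPM. The same 6 genes were called in the C1q gate, where Srxn1 stood at 46.5 and 94.8 CPM, and 0 of 11 were called in the Cd3 gate, where Srxn1 had a log2 fold of 0.15. Prdx1, Gsr, Sqstm1 and the ferritin chains did not pass.

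Stretches of the Slc7a11 and Srxn1 promoters are shown because these members had the largest folds of the list. Capitals mark the antioxidant response element core TGANNNNGC on either strand.
Slc7a11 (chr3:50443622-50443686, minus strand): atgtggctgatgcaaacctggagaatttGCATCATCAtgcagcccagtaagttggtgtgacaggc
Srxn1 (chr2:152105451-152105515, plus strand): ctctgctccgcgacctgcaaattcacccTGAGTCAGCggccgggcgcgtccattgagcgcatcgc
Both matches began 45 bases before the start. They are the ones nearest the start, of 2 in the Slc7a11 and 3 in the Srxn1 promoter. The core stood in 6 of 10 listed genes with a RefSeq promoter, 60% of them, and in 45.0% of all 27025 genes with one, so it is common in windows of this length.

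Genes linked to alternative activation were higher in 4 of 12, against 4.83% of all genes measured in the compartment. Arg1, which breaks down arginine, stood at 205 CPM in WT and 573 CPM in Lrrc25-/- cells, and the C1q gate held 68.5% of the difference, at 182 and 619 CPM. Vegfa, which encodes an angiogenic factor, stood at 23.7 and 57.6 CPM, and the chemokine Ccl24 at 30.1 and 72.4 CPM. Il10 was the other called gene, 123 and 214 CPM. The resident-type markers Mrc1, Folr2 and Lyve1 passed no call, with Mrc1 at 352 and 349 CPM. In the Cd3 gate 0 of 8 were higher and 3 lower. Of these 8, 2 were measured through the WT library alone and had to be lower to enter. Over all 14 listed genes the log2 fold in the Cd3 gate was above 0 for 7. Among 16 genes of lipid-associated macrophages 3 were higher: Spp1, which encodes osteopontin (524 and 1085 CPM), the fatty acid receptor Cd36 (106 and 191 CPM) and the apolipoprotein Apoc2 (26.3 and 61.1 CPM). Trem2, Gpnmb and Apoe were not called.

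Of the 12 listed monocyte genes 10 were measured, 2 of them (Hp and Ifitm6) through the Lrrc25-/- library alone. Such genes had to be higher to enter, so the counts are a description. The genes called were 8, all higher. Among all genes measured in the compartment 4.83% were higher and 0.931% lower. Over all 12 listed genes, measured or not, the log2 fold was above 0 for 12, with a median of 0.89. Besides Thbs1 and Fn1 the called genes were Slpi, a protease inhibitor (119 and 289 CPM), Plac8 (178 and 334 CPM), the chemokine receptor Ccr2 (23.9 and 44.6 CPM), Hp, Ifitm1 and Ifitm6. In the C1q gate 7 were measured and called higher, 2 of them (Ccr2 and Ly6c2) through the Lrrc25-/- library alone. Ccr2 stood at 8.43 and 21.1 CPM there and Slpi at 61.6 and 161 CPM. The 6 monocyte markers summed to 141 CPM in WT and 326 CPM in Lrrc25-/- C1q cells and to 1119 and 1852 CPM in cells of no gate, while the 7 macrophage markers summed to 15416 and 15420 CPM in the C1q gate. Antigen presentation and interferon genes had few calls. None of 6 MHC class II genes passed in the compartment (H2-Aa at 1222 and 1679 CPM) or in the C1q gate. None of 7 interferon-gamma-induced genes and 1 of 7 type I interferon genes, Irf7 (35.5 and 63.1 CPM), was called. Of 15 proliferation genes 0 were higher and 5 lower, with a median log2 fold of -0.45, among them Rrm2 (56.0 and 34.4 CPM) and Ube2c (211 and 131 CPM). The list was also abundant in melanoma-RNA cells without Ptprc, where it summed to 3778 and 3510 CPM against 3277 and 2358 CPM in the compartment. With melanoma-RNA cells left out, the log2 fold was -0.80 instead of -0.69 for Rrm2 and -0.73 instead of -0.68 for Ube2c. In the C1q gate 1 of 15, Ube2c, was lower.

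**Figure D3:**
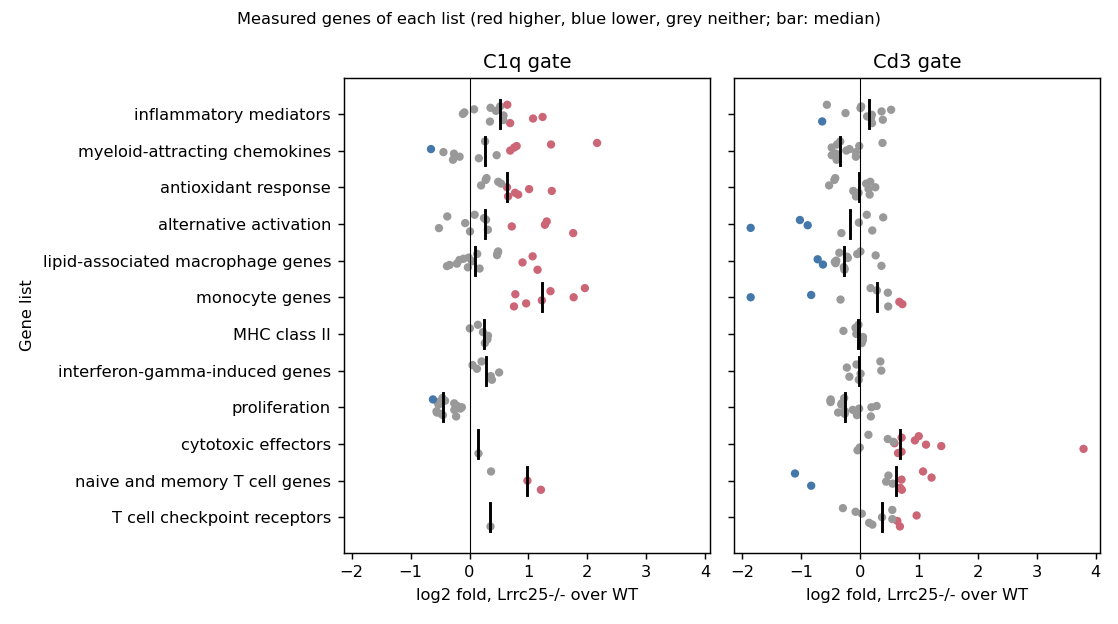
Each point is a measured gene of a list (rows) at its log2 fold, Lrrc25-/- over WT (x axis), in the C1q gate (left) and the Cd3 gate (right), and the black bar is the list's median. Red points were called higher and blue points lower. Inflammatory, antioxidant and monocyte genes lie to the right in the C1q gate, and cytotoxic effectors in the Cd3 gate.

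Within the C1q gate 165 of 4849 measured genes (3.4%) were higher and 35 (0.722%) lower. The largest higher fold of the ranked genes was that of Ppbp, 24.0 CPM in WT and 111 CPM in Lrrc25-/- cells, a ratio of 4.63 (4.23 to 5.07). Thbs1, Fn1 and Arg1 followed. The lower genes were led by Plcb1 and Lrrc25 and then by Kdm2b, a histone demethylase gene, at 55.7 and 9.21 CPM, and by Pgf, a growth factor of the VEGF family, at 25.4 and 12.3 CPM. Kdm2b went the other way in the Cd3 gate, at 64.6 and 103 CPM. With the Ptprc minimum dropped, which raised the C1q gate to 4358 WT and 4667 Lrrc25-/- cells, 137 of the 165 higher genes and 23 of the 35 lower genes were called again in the same direction. Fibroblast collagens were also called higher in this gate: Col1a1 stood at 18.1 and 45.0 CPM. All 3 measured genes of the fibroblast list reached 20 CPM in the Lrrc25-/- library only.

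Cytotoxic effector genes were higher in the Cd3 gate of the Lrrc25-/- library. Of 5190 measured genes 415 (8%) were higher and 135 (2.6%) lower. Among 14 measured cytotoxic effectors 9 were higher and 0 lower, and their median log2 fold was 0.68 against 0.08 over all genes measured in the gate. Of the 14, 2 were measured through the Lrrc25-/- library alone, so they had to be higher to enter. Ccl5, a chemokine of effector T cells, stood at 2141 CPM in WT and 4284 CPM in Lrrc25-/- cells. Prf1, which encodes perforin, stood at 20.1 and 44.9 CPM, Gzmk at 31.8 and 84.4 CPM and Gzmb at 309 and 505 CPM. Ifng, the gene of interferon-gamma, stood at 98.6 and 149 CPM. Gzme had the largest fold of the list, but its UMIs came from few cells: 10 UMIs in 4 WT cells and 346 UMIs in 23 Lrrc25-/- cells, of which 1 cell held 82. The Cd3 gate leaves out cells that also pass another gate. Of 803 WT and 1312 Lrrc25-/- cells at the Cd3 minimum, 428 and 1007 passed no other gate. In cells of several gates, a class not limited to T cells, 11 of the 15 listed effectors had a log2 fold above 0, with a median of 0.10.

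CD8 markers also stood higher in the Cd3 gate. Cd8a and Cd8b1 summed to 288 CPM in WT and 512 CPM in Lrrc25-/- Cd3 cells. Cd4 stood at 49.6 and 43.5 CPM in the gate, whose median depth was 6274 and 4003 UMIs. For genes of this gate, cytotoxic effectors included, a larger share of CD8 cells and a change of level cannot be told apart. Of 10 genes of naive and memory T cells, 1 of them measured through the WT library alone, 5 were higher (8% of all genes in this gate) and 2 lower (2.6%). The higher ones were the transcription factors Tcf7 (33.4 and 55.4 CPM), Lef1 (47.4 and 76.8 CPM), Klf2 (151 and 353 CPM) and Bach2 (46.0 and 97.8 CPM), and S1pr1. Of 11 checkpoint receptors 3 were higher: Pdcd1, the gene of PD-1 (61.6 and 99.3 CPM), Havcr2 (28.7 and 45.2 CPM) and Entpd1 (13.6 and 27.6 CPM). Entpd1 was measured through the Lrrc25-/- library alone, so it had to be higher to enter. None of 7 regulatory T cell genes was called, with Foxp3 at 38.4 and 35.2 CPM. The NK-type receptors Klrk1, Klrc1, Klrd1 and Klre1 were higher, Klrc1 at 73.3 and 131 CPM. In cells of several gates 3 of the 12 listed checkpoint receptors had a log2 fold above 0, with a median of -0.12. For the naive and memory T cell genes it was above 0 for 9 of 10 there, with a median of 0.29.

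Other large folds of the Cd3 gate belonged to genes outside these lists. Nrip1, a nuclear receptor corepressor, stood at 34.0 and 108 CPM. Krt83, a keratin gene, rested on 22 and 145 UMIs. Cdk8, a kinase of the Mediator complex, stood at 45.4 and 144 CPM, and it was also called higher in the C1q gate (58.3 and 103 CPM) and in melanoma-RNA cells without Ptprc (37.3 and 75.2 CPM). The largest lower folds after Plcb1 were those of Saa3, an acute phase protein (131 and 7.15 CPM), Col1a1 (106 and 6.41 CPM) and Col1a2 (54.3 and 3.58 CPM). These rested on few WT cells: 14 WT cells held the 380 Col1a1 UMIs, and 242 of them lay in 1 cell. With the Ptprc minimum dropped, 353 of the 415 higher and 103 of the 135 lower genes were called again.

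The S100a8/9 gate carried the neutrophil genes S100a8 and G0s2. Of 14 listed neutrophil genes 6 were measured in the compartment and called higher, G0s2 through the Lrrc25-/- library alone, and the other 8 were under 20 CPM in both libraries. Over all 14 the log2 fold was above 0 for 14, with a median of 1.18. S100a8, an alarmin subunit, stood at 131 CPM in WT and 307 CPM in Lrrc25-/- cells, and 86.8% of the parts lay in the S100a8/9 gate. Split by arithmetic, the difference of 176 CPM was the sum of 193 CPM from the class mix and -16.9 CPM from levels inside the classes. Inside the gate S100a8 stood at 36893 CPM in 34 WT cells and 23511 CPM in 173 Lrrc25-/- cells, a value that the gate's own rule shapes. When the Lrrc25-/- class levels were weighted by the WT class mix, the log2 fold of S100a8 was 0.45 instead of 1.22. G0s2, a lipase inhibitor abundant in neutrophils, had the largest higher fold of the ranked genes, at 5.10 and 25.5 CPM, a ratio of 5.01 (4.31 to 5.84), and it was also higher inside the gate, 896 and 1651 CPM. Slc7a11 (434 and 945 CPM) and Thbs1 (774 and 2064 CPM) were higher inside the gate as well, whereas Arg1 was lower, 1167 and 331 CPM. Of 1440 genes measured in this gate 148 (10.3%) were higher and 87 (6.04%) lower, over 73673 WT UMIs, and under TMM scaling 358 were higher and 33 lower. The 6 measured MHC class II genes, 1 of them measured through the Lrrc25-/- library alone, were higher in this gate. The list of 8 summed there to 1670 CPM in WT and 9510 CPM in Lrrc25-/- cells. The 8 neutrophil markers summed to 86979 and 55605 CPM in the gate and the 3 plasmacytoid dendritic cell markers to 828 and 270 CPM. The 6 monocyte markers summed to 1412 and 2295 CPM, the 7 macrophage markers to 733 and 1164 CPM. A change of the gate's makeup and a change of level in neutrophils cannot be told apart. The largest folds rested on few cells: Camp, a granule peptide gene, had 0 UMIs in WT and 528 in 3 Lrrc25-/- cells, Ltf 0 and 103 in 5 cells, and BC018473 had 117 UMIs in 11 WT cells and 0 in the Lrrc25-/- cells. In the whole compartment BC018473 had 493 UMIs in 171 WT cells and 5 UMIs in 2 Lrrc25-/- cells, 12.6 and 0.0880 CPM, below the 20 CPM needed for a call. It had 49 and 0 UMIs in the Cd3 gate, 74 and 0 in the C1q gate and 90 and 5 in cells of no gate. In melanoma-RNA cells without Ptprc it stood at 0.687 and 0.705 CPM, and in the MC38 compartments at 0.0151 and 0.0115 CPM. BC018473 is annotated as antisense, and whether counting used the strand is not given in the sources used here, so its reads may belong to an overlapping gene. Genotype, host background and library cannot be told apart for BC018473.

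The other 2 lymphoid gates were thin. In the Ncr1 gate 104 of 975 measured genes (10.7%) were higher and 59 (6.05%) lower. Of the granzyme genes, Gzmd had 0 UMIs in WT and 403 in 3 Lrrc25-/- cells, 280 of them in 1 cell. Ccl1, a T cell chemokine gene, had 551 UMIs in 4 WT cells and 45 in 6 Lrrc25-/- cells. The 5 melanoma markers summed to 485 and 3113 CPM in this gate, and their part in its differences was not tested. In the Cd79a gate 125 of 1043 genes (12%) were higher and 96 (9.2%) lower. Jchain, the joining chain of secreted antibodies, stood at 13172 and 7193 CPM there, but 1329 of its 1985 WT UMIs and 1451 of its 2061 Lrrc25-/- UMIs lay in 1 cell each. The 6 B cell markers summed to 6019 and 2101 CPM in this gate, of which Ighm alone stood at 5315 and 656 CPM. Ms4a1 went the other way, at 19.9 and 129 CPM. Of the 11 listed B cell genes 10 had a log2 fold above 0 in the gate, with a median of 1.62. Syk, a kinase downstream of the B cell receptor, had 3 and 48 UMIs.

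Cells in no gate were 19.1% of WT and 27.3% of Lrrc25-/- compartment cells, a ratio of 1.43 (1.31 to 1.57), and 864 of 5289 measured genes (16.3%) were higher and 609 (11.5%) lower. Of 13 listed dendritic cell genes 7 were measured in them, 1 through the Lrrc25-/- library alone, and 5 were higher. Over all 13 the median log2 fold was 0.68. Marker sums of several cell types differed. The 3 markers of type 2 conventional dendritic cells summed to 55.8 CPM in WT and 154 CPM in Lrrc25-/- cells. Outside this class they summed to 108 and 66.5 CPM in the C1q gate and to 58.3 and 77.1 CPM in cells of several gates. In the whole compartment these markers summed to 89.1 and 82.6 CPM. In cells of no gate the 3 markers of migratory dendritic cells summed to 197 and 409 CPM, and the 5 melanoma markers to 6920 and 5042 CPM. The 3 markers of type 1 conventional dendritic cells summed to 167 and 272 CPM, the 3 of plasmacytoid dendritic cells to 505 and 598 CPM and the 6 monocyte markers to 1119 and 1852 CPM. Cd209a stood at 26.4 and 88.1 CPM, Ccl22 at 18.2 and 61.6 CPM, and Ccr7, the receptor for lymph node homing, at 78.8 and 259 CPM. Il1r2, a decoy receptor for interleukin-1, stood at 89.9 and 306 CPM. The MHC class II genes, not called in the C1q gate, were higher here: H2-Aa stood at 1549 and 3100 CPM and Cd74 at 3288 and 6259 CPM. All 15 proliferation genes, 1 of them measured through the WT library alone, were lower in this class, with Cdk1 at 129 and 39.2 CPM. The class mixes several cell types, so a change of its makeup and a change of level in any type cannot be told apart.

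**Figure D4:**
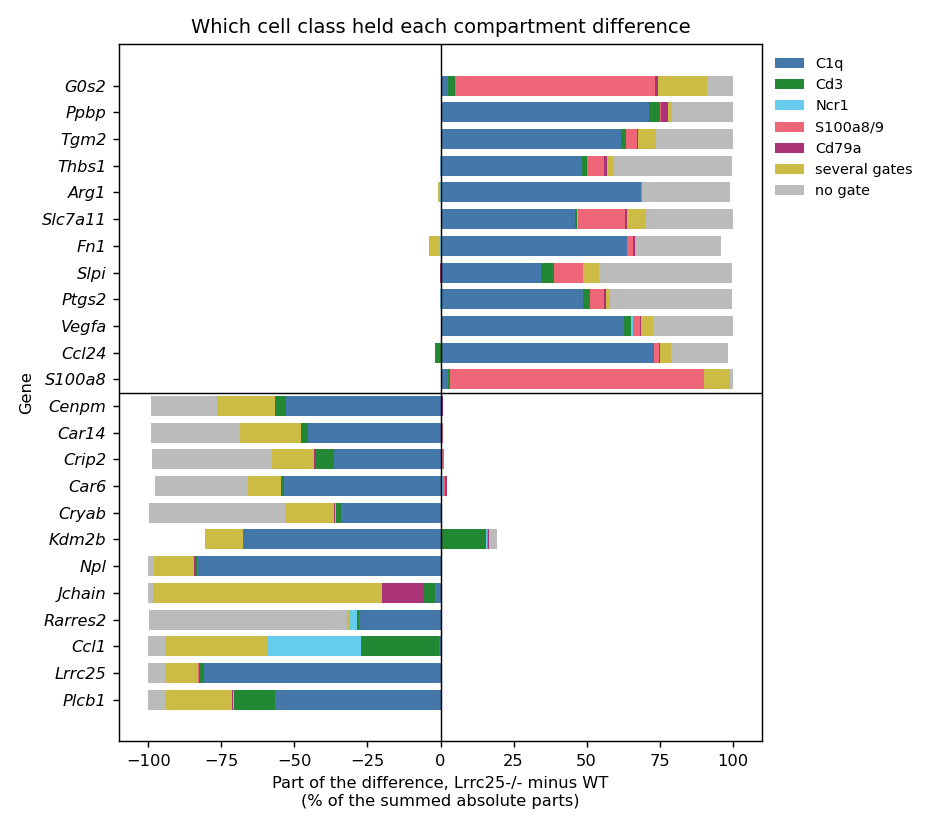
Each bar splits the compartment difference of 1 gene, Lrrc25-/- minus WT, into cell classes (colours), as a percent of the summed absolute parts (x axis). The C1q gate (dark blue) held 68.5% for Arg1 and 81.1% for Lrrc25, the S100a8/9 gate 86.8% for S100a8, and cells of several gates 78.1% for Jchain.

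The lower genes were few and uneven. Plcb1, a phospholipase C of receptor signalling at chr2:134786067-135475258, had the largest fold of the ranked genes, 696 CPM in WT and 19.3 CPM in Lrrc25-/- cells, 36.1-fold lower. It was low in each gate: 667 and 12.4 CPM in C1q cells, 1024 and 7.45 CPM in Cd3 cells, 1050 and 11.7 CPM in Ncr1 cells, 380 and 48.4 CPM in S100a8/9 cells and 491 and 24.4 CPM in Cd79a cells. In melanoma-RNA cells without Ptprc it stood at 15.2 and 3.11 CPM. Between the MC38 compartments it stood at 76.4 CPM in WT and 51.2 CPM in Lrrc25-/- cells and passed no call, whereas in the MC38 C1q gate it was called lower, at 62.7 and 38.7 CPM, as were 2.3% of 5872 genes measured there. Whether the WT mice were littermates of the Lrrc25-/- mice is not given in the sources used here, so genotype, host background and library cannot be told apart for this gene. Npl, an enzyme of sialic acid breakdown, stood at 171 and 86.4 CPM and was carried by the C1q gate.

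Several of the other lower genes rested on few cells or were abundant in melanoma-RNA cells. Jchain stood at 164 and 60.7 CPM, and cells passing several gates held 78.1% of the difference, with 3810 UMIs in 30 WT cells and 980 in 10 Lrrc25-/- cells. Ccl1 stood at 52.2 and 10.5 CPM, from 96 and 58 cells. Rarres2, which encodes the chemoattractant chemerin, stood at 22.8 and 5.78 CPM, but 367 of its 890 WT UMIs lay in 1 cell, and with 2 Ptprc UMIs required its log2 fold turned from -1.81 to 0.18. Cryab, Car6, Crip2, Car14 and Cenpm were also lower in the compartment, Cryab at 148 and 80.4 CPM. All 5 stood higher in melanoma-RNA cells without Ptprc than in the compartment of either library. Cryab stood at 509 and 479 CPM in those cells, and none of the 5 was called there. The melanoma markers summed to 2655 and 2324 CPM in the compartment. With melanoma-RNA cells left out, the log2 fold of Cryab was -1.63 instead of -0.88 and that of Car14 -2.03 instead of -0.77.

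The MC38 compartments, with 12042 WT and 12714 Lrrc25-/- cells, were read by the same rule. Of 6217 genes measured there 76 (1.22%) were higher and 107 (1.72%) lower. Of the 244 genes higher in B16F10, 223 were measured in MC38, 13 were higher and 13 lower. Of the 47 lower genes 26 were measured, 3 were lower and 3 higher. Lrrc25 was lower in both models, at 67.4 and 1.49 CPM in MC38. Slpi (78.8 and 130 CPM), Ccr7 (32.7 and 59.3 CPM), Ccl5 (359 and 967 CPM), Gzma (19.3 and 40.3 CPM) and S100a8 (66.7 and 101 CPM) were higher in both. Arg1 was higher in B16F10 and lower in MC38, where it stood at 1804 and 1060 CPM, and so were Spp1 (1688 and 777 CPM), Ptgs2 (237 and 152 CPM) and Cxcl3 (330 and 212 CPM). Thbs1 (844 and 698 CPM), Slc7a11 (192 and 182 CPM) and Tgm2 (264 and 259 CPM) passed no call in MC38. The models differ in tumor line and in day of harvest, so these cannot be told apart.

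**Figure D5:**
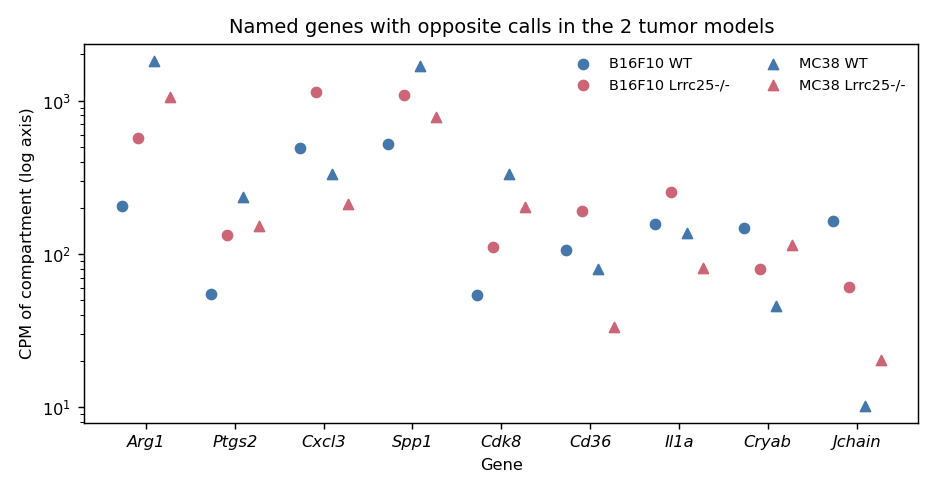
CPM in the compartment (log axis) of the 9 named genes with opposite calls in the 2 models, for B16F10 (circles) and MC38 (triangles), with WT in blue and Lrrc25-/- in red. For Arg1 the red circle (573) lies above the blue circle (205), and the red triangle (1060) below the blue triangle (1804).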

How the data were processed

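Droplet single-cell libraries of 4 tumor pools were used as deposited: the authors' matrices hold raw UMI counts (whole numbers, 1 row per gene and 1 column per barcode). The genome build, per the submitters' processing notes, was mm10. Aligner, counter and cell caller: not given in the sources used here. No barcode held under 500 UMIs. Raw counts were summed per library and class and scaled to counts per 1000000 UMIs (CPM). No doublets were removed in the reported values; cells passing several gates formed their own class, and removal by Scrublet score (scanpy 1.11.5) was an alternative, as was TMM scaling (edgeR 4.0.16). No test was run, with 1 pool per genotype. Ratios have exact conditional 95% intervals. Ptprc was left out of all counts of calls, and genes setting a gate out of those within cell classes, not out of those of the compartment. Tested on simulated counts for the compartment (4900 genes), the rule called 100 of 100 genes at a true 2-fold rise, 48 of 50 at 0.5 and 0 of 4702 unchanged. The simulated counts held counting error only. They cannot give the rate of calls that come from differences between pools or mice, or from single cells with many UMIs.

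Named genes were Lrrc25, Ptprc, the 12 largest folds per direction in the compartment, up to 3 called genes per list and the 4 largest per direction in each gate, without antigen receptor segments, sex-linked, mitochondrial, ribosomal, Gm and Rik genes and the melanoma list. Other list members were named after their values were seen. Members and lists were chosen with earlier results of these data known. Positions are from GENCODE M21 and promoters from RefSeq, both GRCm38.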

Additional observations from a re-analysis of the deposited data

Results flagged for a closer look

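Of the named genes, 9 passed the size rule in opposite directions in the B16F10 and MC38 compartments. With 1 pool per genotype and model the difference between models was not tested. Log2 folds, Lrrc25-/- over WT, were 1.48 in B16F10 and -0.77 in MC38 for Arg1, 1.26 and -0.64 for Ptgs2, 1.21 and -0.64 for Cxcl3, and 1.05 and -1.12 for Spp1. They were 1.02 and -0.71 for Cdk8, 0.85 and -1.21 for Cd36, and 0.70 and -0.76 for Il1a. Cryab (-0.88 and 1.32) and Jchain (-1.42 and 0.91) were lower in B16F10 and higher in MC38.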

How the results depend on the processing

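Of 123 recomputed main values 96 stayed within 1.5 times or their counting interval, and of 936 for named genes 585 did, while 4 of the 936 turned direction. For the compartment (244 higher, 47 lower), the mean of per-cell CPM gave 412 higher and 90 lower genes, a pseudocount of 10 CPM 149 and 27, no CPM floor 565 and 158, and cells thinned to 1000 UMIs 458 and 141. The lower count was 80 under TMM scaling (198 higher) and 122 without melanoma-RNA cells. Under those 2 settings 47 and 42 of the 47 lower genes were called again. With 2 Ptprc UMIs required, 188 of the 244 higher and 27 of the 47 lower genes were called again. Those counts were 195 and 34 with high Scrublet scores left out, and 179 and 35 after thinning to 1000 UMIs. Cells with only 1 Ptprc UMI were 51.8% of the WT and 45.6% of the Lrrc25-/- compartment. In the C1q gate, lower and higher gate minimums gave 69 and 93 lower genes, and dropping the Ptprc minimum, a setting chosen after seeing the data, gave 302 higher genes. In the small gates, higher genes numbered 61 in the Ncr1 gate with higher minimums, and 251 in the S100a8/9 gate with lower minimums. TMM scaling of the S100a8/9 gate gave 358 higher and 33 lower, and lower genes of the Cd79a gate numbered 192 and 42 with lower and higher minimums. The Cd3 share ratio (1.44) was 1.67 with lower and 1.27 with higher minimums. It was 1.00 with cells counted in each gate they passed, and 1.19 when cells were also thinned to 1000 UMIs, chosen after seeing the data. Counted in each gate, the C1q ratio was 0.754, the S100a8/9 ratio 2.03 and the Cd79a ratio 0.910, which reversed; the Cd79a ratio was 3.62 with 2 Ptprc UMIs. The 4 turned directions were those of Rarres2 (log2 fold 0.18 with 2 Ptprc UMIs), Col1a1 in the Ncr1 gate (3.14 without high Scrublet scores), Gzmf in the Ncr1 gate (-3.83 with higher minimums) and Il1r2 in the Cd79a gate (0.96 with lower minimums). The cause of these moves was not tested. Thinning left out 75 WT and 224 Lrrc25-/- cells below 1000 UMIs. In the gates with under 50 WT cells, depth limits what can be seen. No paired analysis was possible because each group holds 1 library, and for the same reason no replicate could be left out.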
